A study of Homo sapiens with 4 samples.

Results

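The genes described here are 51 genes of mitosis, the phase in which a cell condenses its duplicated chromosomes, attaches them to the spindle and divides. They were chosen by symbol, as genes whose products enter, run or end mitosis, and by a mean of at least 1 FPKM over the 4 libraries of the study. FPKM count fragments relative to transcript length and library depth. All 51 were found among the 26255 gene symbols of the data and all 51 passed the filter, as did 12663 genes in all. By role they comprised 9 cyclins, kinases and phosphatases of mitotic entry, 5 genes of chromosome structure, 5 genes of the spindle checkpoint and 4 of the chromosomal passenger complex. The others were 9 genes of the centromere and kinetochore, 9 kinesins, 6 genes of spindle assembly and cytokinesis and 4 genes of anaphase onset.

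The study profiled the mRNA of A549, a line of epithelial cells from a human lung adenocarcinoma, labelled wild type. Cells were kept for 5 days in medium with 5% serum, either in 3D, on a bed of solidified Matrigel (a basement membrane gel), or in 2D, on an ordinary dish. Each culture was kept under normoxia or under hypoxia at 1% oxygen. There was 1 library for each of the 4 groups, which are called 3D normoxia and 3D hypoxia, and 2D normoxia and 2D hypoxia. Where 4 values of a gene follow each other without labels, they stand in that order. The series' design text states the aim as describing structures that form under hypoxia, and compares both cultures at both oxygen levels. All groups are 1 cell line with the same serum. The labels name no separate experiments behind the 4 libraries, whose differences may be technical, and each group has 1 library. A p-value here thus measures no spread between replicates. It rests on how far the values of a gene, and of all genes, depart from additive effects of culture and oxygen.

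Mitosis begins when CDK1, a kinase bound to the B-type cyclins, is switched on by CDC25 phosphatases and by a loop through the kinases AURKA and PLK1. Chromosomes are then compacted by condensin, joined to microtubules by the kinetochores, and watched by the spindle checkpoint, which holds back the anaphase-promoting complex until every kinetochore is attached. Many of these genes are transcribed in late cell cycle phases only, so that in a culture their mRNA is known as a gauge of how many cells are dividing. Their promoters are known for a CHR element (cell cycle genes homology region), which the DREAM and MuvB complexes bind, and for CCAAT boxes, which NF-Y binds.

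The promoters of 6 members are shown because their genes come from 6 different roles and hold a CHR element before their start. Each has 200 bases before the annotated transcription start, from RefSeq on GRCh38.p14, 5′ to 3′ on the gene's strand. Capitals mark the CHR element (TTTGAA, or TTCAAA where it lies on the other strand) and the CCAAT box (CCAAT, or ATTGG on the other strand). TOP2A, topoisomerase II alpha, is at chr17:40417897-40418096 (minus strand), PRC1, a protein that bundles midzone microtubules, at chr15:90994536-90994735 (minus strand), and CDC20, the mitotic activator of the anaphase-promoting complex, at chr1:43358781-43358980 (plus strand). PLK1 is at chr16:23678689-23678888 (plus strand), KIF23, a kinesin of the cleavage furrow, at chr15:69414149-69414348 (plus strand), and INCENP, the scaffold of the passenger complex, at chr11:62123811-62124010 (plus strand).
TOP2A: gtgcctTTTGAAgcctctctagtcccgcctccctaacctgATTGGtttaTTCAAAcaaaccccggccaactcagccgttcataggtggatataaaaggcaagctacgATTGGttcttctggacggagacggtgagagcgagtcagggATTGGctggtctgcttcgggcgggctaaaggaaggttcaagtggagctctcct
PRC1: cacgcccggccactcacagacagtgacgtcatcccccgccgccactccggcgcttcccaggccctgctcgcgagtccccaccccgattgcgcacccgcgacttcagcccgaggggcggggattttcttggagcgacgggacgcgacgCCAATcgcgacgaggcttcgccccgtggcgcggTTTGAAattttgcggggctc
CDC20: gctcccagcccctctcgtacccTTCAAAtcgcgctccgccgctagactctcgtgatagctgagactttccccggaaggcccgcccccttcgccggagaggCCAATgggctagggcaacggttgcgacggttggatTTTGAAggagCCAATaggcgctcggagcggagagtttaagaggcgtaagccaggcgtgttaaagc
PLK1: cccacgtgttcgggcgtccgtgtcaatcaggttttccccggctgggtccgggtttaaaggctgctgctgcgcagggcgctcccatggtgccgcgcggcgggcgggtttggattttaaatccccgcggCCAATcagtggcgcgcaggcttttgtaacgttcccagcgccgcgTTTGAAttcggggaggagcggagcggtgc
KIF23: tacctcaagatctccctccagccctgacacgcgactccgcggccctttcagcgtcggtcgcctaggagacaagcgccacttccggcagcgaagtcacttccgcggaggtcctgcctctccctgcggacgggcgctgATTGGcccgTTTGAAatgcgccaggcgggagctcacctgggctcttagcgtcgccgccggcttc
INCENP: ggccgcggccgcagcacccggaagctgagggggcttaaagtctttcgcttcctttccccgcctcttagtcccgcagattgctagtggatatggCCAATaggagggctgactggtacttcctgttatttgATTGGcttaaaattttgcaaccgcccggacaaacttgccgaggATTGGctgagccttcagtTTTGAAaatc

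In these windows a CHR element began 20 bases before the start of PRC1, 29 bases before that of PLK1, 55 bases before that of KIF23 and 10 bases before that of INCENP. CDC20 had one 65 bases and another 178 bases before its start, and TOP2A had one 151 bases and another 194 bases before. The CCAAT box nearest to the start lay 53 bases before it in TOP2A and in PRC1, 55 bases in CDC20, 73 bases in PLK1, 64 bases in KIF23 and 28 bases in INCENP. In PRC1, PLK1 and KIF23 the CCAAT box stood upstream of the CHR element, and so did every CCAAT box of INCENP.

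Of the 51 members, 42 had a promoter window of 300 bases, from 250 before to 50 after the start, in the RefSeq table. The others were UBE2C, TTK, TPX2, AURKA, CENPM, BUB3, RACGAP1, FOXM1 and BIRC5. A CHR element was present in 30 of the 42 (71.4%), against 18.2% of the 27305 genes with a window and 13.2% of those that passed the expression filter. A CCAAT box was present in 33 of 42 (78.6%) against 39.7% of all genes, and 2 or more of them in 20 (47.6%) against 12.9%. CHR element and CCAAT box occurred together in 23 members (54.8%) and in 7.26% of all genes. The variant TTCGAA, which reads the same on both strands, was in 3 members (7.14%) and in 1.82% of all genes. A CHR and a CCAAT match can share an end base, and a match is a description of the window, not a site shown to be used.

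**Figure D1:**
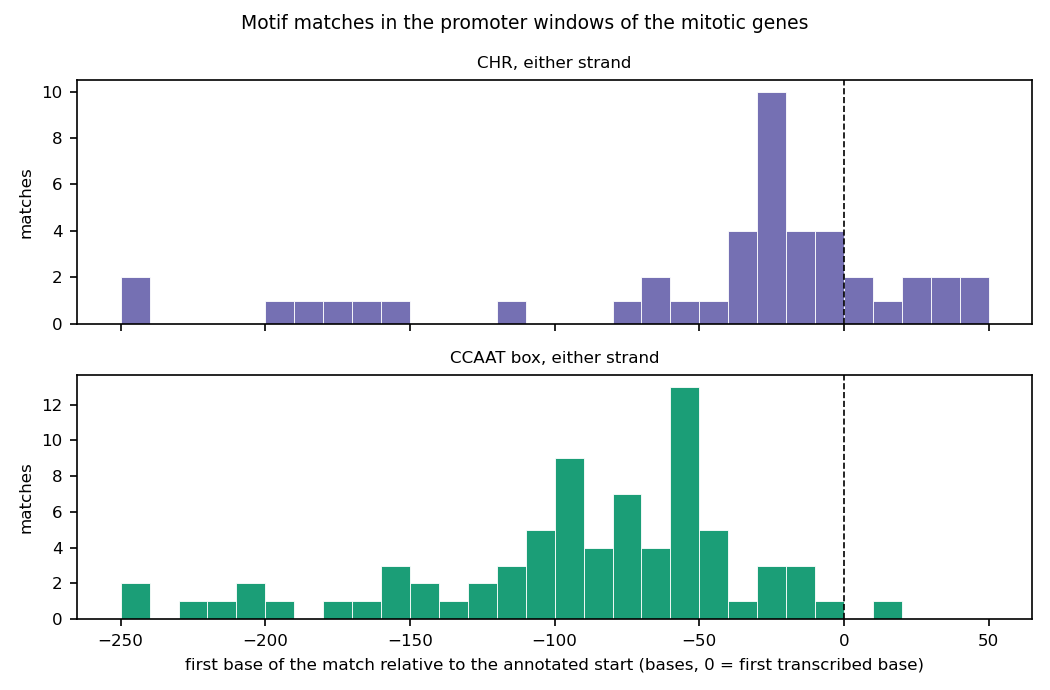
Position of each CHR (upper panel) and CCAAT (lower panel) match in the 53 promoter windows of 42 members; the x axis gives bases from the annotated start and the y axis the number of matches in bins of 10 bases. Windows of 1 gene with nearby starts can hold the same match more than 1 time. CHR matches are most frequent in the bins just before the start, and CCAAT matches further upstream.

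The CHR matches gathered near the start, as the plot of motif positions shows. Within the 60 bases before the start, a distance chosen after the positions were seen, 21 of the 42 members and 3.76% of all genes had one. The average culture effect described below had a median of -0.90 on the log2 scale among the 30 members with a CHR element and -0.73 among the 12 without. For a CHR element within those 60 bases the medians were -0.89 with and -0.90 without. For the CCAAT box they were -0.85 and -0.92, and for 2 or more of them -0.83 and -0.92. For CHR element and CCAAT box together they were -0.88 and -0.90, and for the variant -0.77 and -0.90. None of these differences was tested.

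The libraries were of unequal depth. Inferred from the smallest steps in the values, depth was about 11900000 and 11500000 fragments for 3D normoxia and 3D hypoxia, and about 24100000 and 38800000 for 2D normoxia and 2D hypoxia. The epithelial keratins KRT8 and KRT18 ranged from 1721 to 3731 FPKM, CDH1 from 24.6 to 37.3 and EPCAM only from 1.43 to 2.73. KRT19, another keratin of epithelia, was at 71.5 and 87.1 FPKM in 3D and at 29.1 and 23.6 FPKM in 2D. CDKN2A and CDKN2B, which A549 lacks, were listed at 0 in all 4. Of 9 markers of blood, endothelial and fibroblast cells, 2 or 3 were listed at 0 per library and CD3E in all 4. Their sum was 32.7 and 32.2 FPKM in 3D and 23.3 and 26.6 FPKM in 2D, mostly CD68 except in 2D hypoxia. Without CD68 it was 1.1 and 1.06 in 3D and 3.09 and 13.5 in 2D. Of this, the collagen gene COL1A1 alone held 0.856 and 0.614 FPKM in 3D and 2.32 and 13.2 FPKM in 2D. CA9, a carbonic anhydrase switched on by low oxygen, was at 4.05 and 4.0 FPKM in the normoxic libraries and at 199.7 and 139 FPKM in the hypoxic ones.

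Every member was detected in every library. KIF15, a kinesin that helps keep spindle poles apart, had the lowest level in each, from 2.1 FPKM in 3D hypoxia to 5.60 in 2D normoxia. The highest was CDC25B in the 3D libraries (147 and 112 FPKM under normoxia and hypoxia) and TOP2A in the 2D libraries (135 and 112 FPKM). The median over the 51 genes was 17.4 and 13.0 FPKM in 3D under normoxia and hypoxia, and 27.1 and 24.9 FPKM in 2D. Summed, the 51 genes held 1377 and 1027 FPKM in 3D under normoxia and hypoxia, and 2167 and 1919 FPKM in 2D, or 0.253%, 0.172%, 0.458% and 0.369% of each library's FPKM. The sums ran from 2D normoxia down through 2D hypoxia and 3D normoxia to 3D hypoxia. The fewest estimated fragments were those of SPC24, a short kinetochore gene, at 66 in 3D hypoxia.

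**Figure D2:**
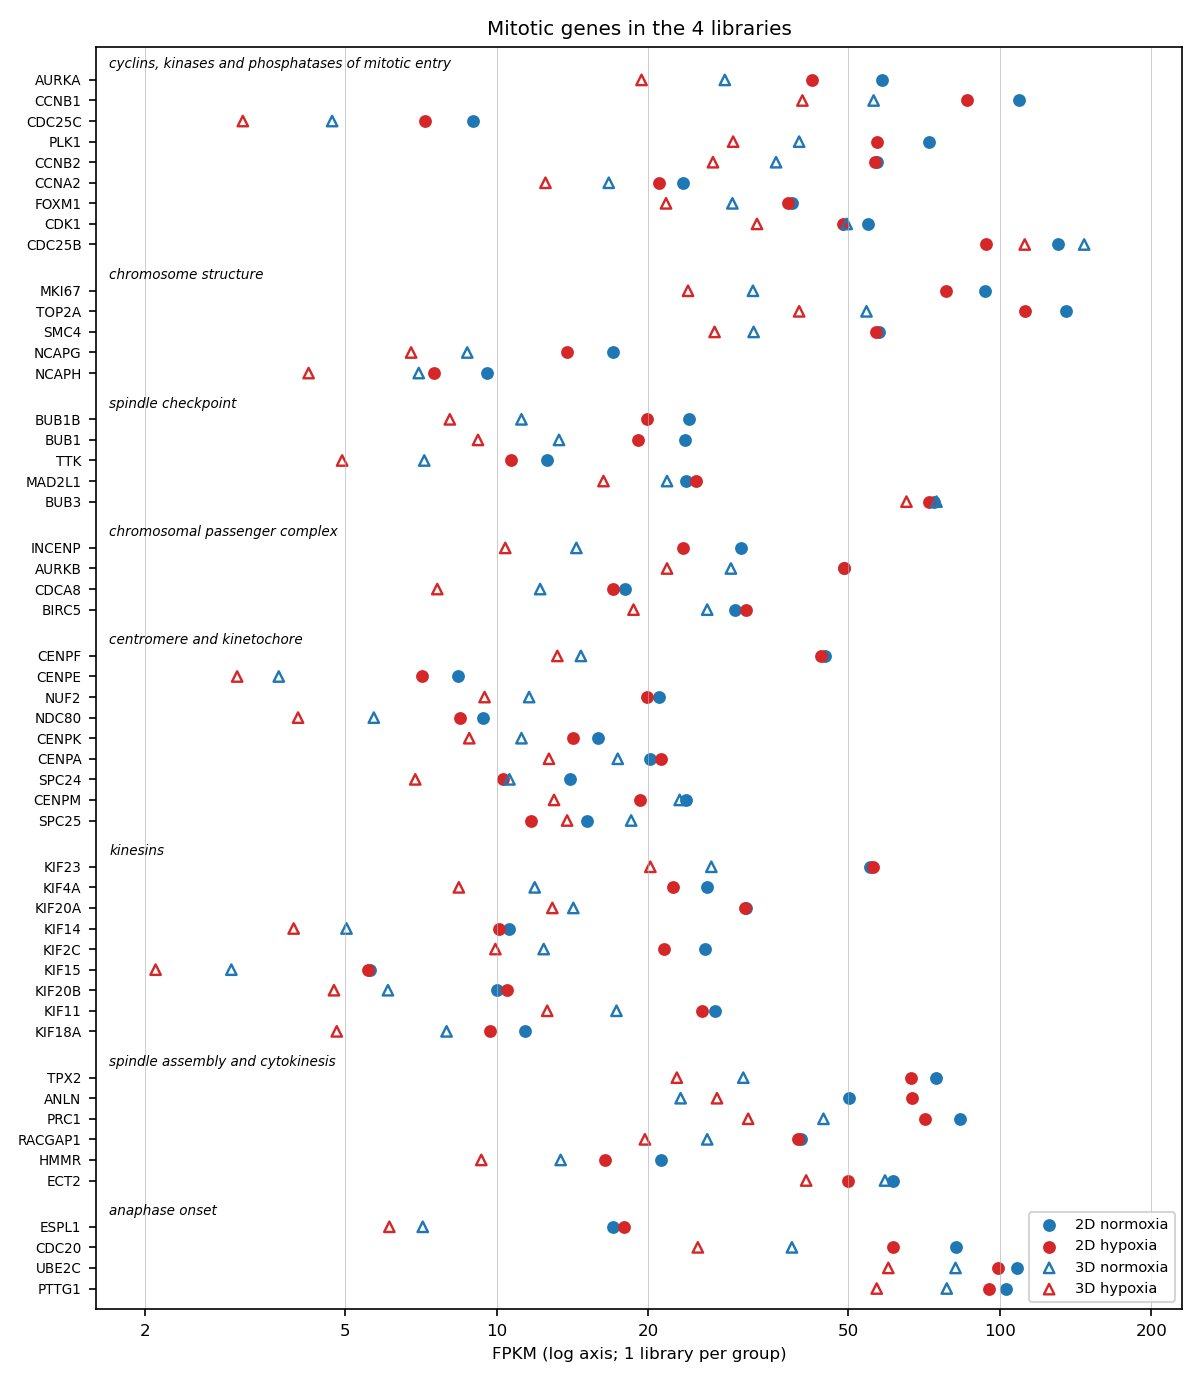
FPKM (x axis, log scale) of the 51 mitotic genes (rows, grouped by role and ordered within a role by the average culture effect) in the 4 libraries; circles are 2D, triangles 3D, blue normoxia and red hypoxia, and there is 1 library per group, so no error bar. In 44 of the 51 rows both triangles lie left of both circles, against 30.1% of all genes kept. In 48 rows the red triangle is the lowest value, a count with no share of all genes beside it.

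The order of the 4 libraries was the same in 37 members, namely 2D normoxia, then 2D hypoxia, then 3D normoxia, then 3D hypoxia. In 6 more (MAD2L1, BIRC5, CENPA, KIF20B, KIF23 and ESPL1) only the 2D libraries changed places. CDK1, CENPM, SPC24 and ECT2 had 3D normoxia above 2D hypoxia. Both 3D libraries lay below both 2D libraries in 44 of 51 members, against 30.1% of all genes kept. The 7 others were CDK1, CDC25B, BUB3, CENPM, SPC24, SPC25 and ECT2. 3D hypoxia was the lowest library for 48 members, all but CDC25B, SPC25 and ANLN. For this count and for that of the 37 members with the same order, no share of all genes was counted.

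The larger differences were those between the cultures. Mitotic genes were lower in 3D than in 2D at either oxygen level, led by CENPF, MKI67, TOP2A and TPX2, and no member was as much as 1.5-fold higher. With 1 library a group, each pair was described by its log2 ratio of FPKM + 1, with no test, and folds are on that scale too, which understates differences of low genes. Under normoxia the median log2 ratio of 3D to 2D was -0.73 over the members and -0.03 over all genes kept, and 48 of 51 members were below 0 against 52.9% of all genes. At least 2-fold lower in 3D were 13 members, against 2.49% of all genes (4 with a pseudocount of 5, against 0.987%, 7 with each length class centred, against 2.12%, and 24 with the libraries rescaled, against 5.58%), and at least 1.5-fold lower were 33, against 10.0%. Under hypoxia the median was -0.99 (all genes -0.03), 49 members were below 0, 24 were at least 2-fold lower against 3.02% of all genes, and 43 at least 1.5-fold lower against 10.1%. In these bulk libraries, fewer dividing cells and less mRNA per dividing cell cannot be told apart.

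The average of both culture ratios was tested with limma in a model with culture and oxygen as additive terms, fitted on all 12663 genes, with Benjamini-Hochberg adjustment at 0.05. By this test 42 of the 51 members fell in 3D, where 11.6% of all genes fell, and 0 rose, where 10.4% of all genes rose. The members were chosen with earlier results of these data known, so these counts are not independent of the data. An unadjusted p below 0.05 was found for 44, against 40.3% of all genes. The median average effect was -0.88 on the log2 scale, against -0.03 over all genes. The model leaves 1 residual degree of freedom, which holds noise together with any difference of the culture ratio between the oxygen levels. The standard errors given below rest on this residual and on a prior of 4.67 degrees of freedom from all genes, not on replicates. In data simulated for the same 4 groups, false calls exceeded the nominal rate. The simulation held no oxygen effect and no difference of the culture ratio between oxygen levels, so it cannot tell how many of the 42 calls are false. The calls of FOXM1, NCAPH, SPC24 and PTTG1 were lost with a pseudocount of 5, with the median ratio of all genes set to 0 and without trend, and that of UBE2C with the first 2 of these. Without a filter on low values limma called 0 genes, and 37 members had an unadjusted p below 0.05, a count with no share of all genes beside it. The culture groups also differed in inferred depth, as given above, and in the marker CD68 (31.6 and 31.2 FPKM in 3D, 20.2 and 13.1 in 2D), and the part of either in these results was not tested.

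**Figure D3:**
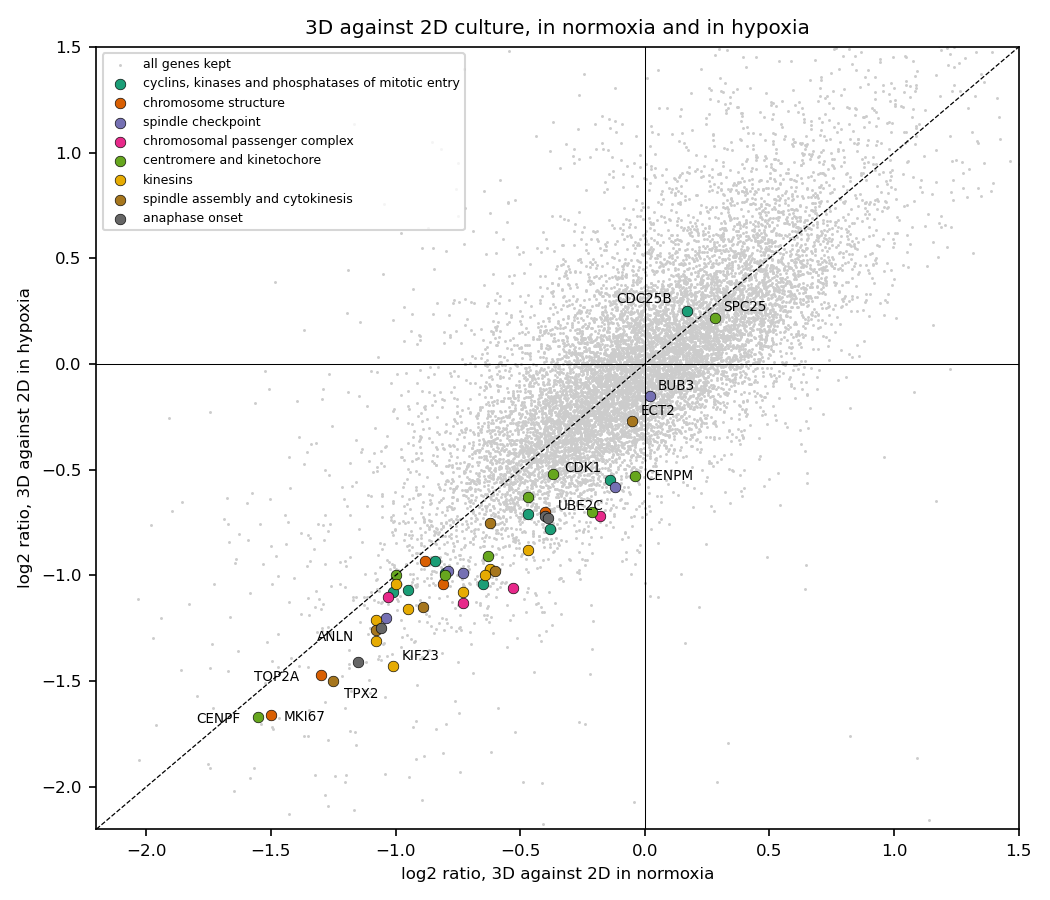
Log2 ratio of FPKM + 1 in 3D against 2D under normoxia (x axis) and under hypoxia (y axis) for the 51 mitotic genes (colours by role) and all 12663 genes kept (grey, those beyond the axes not drawn); the dashed line marks equal ratios, and each point rests on 1 library per group. Most mitotic genes lie at the lower left, from 0.28 down to -1.55 on the x axis and from 0.25 down to -1.67 on the y axis, and 50 of 51 lie below the dashed line.

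Genes of chromosome structure fell in 5 of 5 cases. MKI67, whose product Ki-67 coats mitotic chromosomes and is a standard marker of dividing cells, was at 32.3 and 24 FPKM in 3D under normoxia and hypoxia, and at 93.4 and 78.1 FPKM in 2D. The 3D values were 2.84-fold lower under normoxia and 3.17-fold lower under hypoxia, with an average log2 effect of -1.58 ± 0.12 (standard error, adjusted p = 0.00519). TOP2A, which untangles sister DNA, was at 54.3 and 39.9 FPKM in 3D normoxia and hypoxia and at 135 and 112 FPKM in the 2D libraries. Its average log2 effect was -1.38 ± 0.12 (adjusted p = 0.00671). The condensin genes had smaller effects, -0.92 for SMC4, -0.91 for NCAPG and -0.55 for NCAPH, the last with 7.0, 4.23, 9.57 and 7.51 FPKM. SMC4, the shared ATPase subunit, was at 32.4, 27.1, 57.4 and 56.7 FPKM, and NCAPG at 8.74, 6.76, 17.0 and 13.8 FPKM.

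All 9 kinesins fell, with a median average effect of -1.02. KIF23, the motor of the centralspindlin complex whose promoter is printed above, was at 26.7 and 20.2 FPKM in 3D under normoxia and hypoxia, and at 55.1 and 56.0 FPKM in 2D. Its 3D value was 2.02-fold lower under normoxia and 2.69-fold lower under hypoxia (average log2 effect -1.22 ± 0.14, adjusted p = 0.0101). KIF4A, a chromokinesin, had 11.9, 8.41, 26.2 and 22.4 FPKM (-1.20, adjusted p = 0.00856). KIF20A, a kinesin needed for cytokinesis, had 14.2, 12.9, 31.3 and 31.2 FPKM (-1.15, adjusted p = 0.00856). For both, each 3D value lay well below either 2D value. KIF11, the plus-end motor that pushes spindle poles apart, had 17.3, 12.6, 27.1 and 25.6 FPKM and an average effect of -0.79. KIF18A, which limits chromosome oscillation, had 7.95, 4.81, 11.4 and 9.71 FPKM and the smallest effect of the 9, -0.67 (adjusted p = 0.0294). KIF2C, KIF14, KIF15 and KIF20B had average effects of -1.02, -1.05, -0.90 and -0.82.

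In the group of spindle assembly and cytokinesis, 5 of 6 fell. TPX2, which activates AURKA on spindle microtubules, was at 30.9 and 22.8 FPKM in 3D under normoxia and hypoxia, and at 74.7 and 66.5 FPKM in 2D. Its average log2 effect was -1.37 ± 0.13 (adjusted p = 0.00683). ANLN, an actin-binding protein of the cleavage furrow, was at 23.2, 27.4, 50.1 and 66.9 FPKM (-1.17, adjusted p = 0.00856), so that both 3D values lay below both 2D values although its hypoxic libraries were the higher ones. PRC1, with 44.6, 31.6, 83.3 and 71.1 FPKM, had the highest mean level of the group and an average effect of -1.02 (adjusted p = 0.0108). HMMR and RACGAP1 had effects of -0.69 and -0.79. ECT2, the exchange factor that activates RhoA for furrowing, was at 59.1, 41.2, 61.2 and 50 FPKM with an effect of -0.16 (adjusted p = 0.376), and did not pass the test.

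Genes of anaphase onset fell in 4 of 4 cases, and in 2 of them (PTTG1 and UBE2C) the call was lost under some alternatives, as given above. CDC20 was at 38.6 and 25.1 FPKM in 3D under normoxia and hypoxia, and at 81.7 and 61.2 FPKM in 2D (-1.16 ± 0.12, adjusted p = 0.00856). ESPL1, the separase that cuts cohesin, was at 7.13, 6.12, 17.0 and 17.9 FPKM (-1.28 ± 0.13, adjusted p = 0.00846). PTTG1, the securin that restrains separase, was at 78.4, 56.9, 103 and 94.9 FPKM, and its effect of -0.56 (adjusted p = 0.0416) was smaller than that of ESPL1, with no test of that difference. UBE2C, the ubiquitin-conjugating partner of the anaphase-promoting complex, was at 81.6, 60, 108 and 99.3 FPKM (-0.56, adjusted p = 0.0389). Both copies of PTTG1 in the files, PTTG2 and PTTG3P, were listed at 0 in all 4 libraries, so how fragments were shared among near-identical copies is uncertain.

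Regulators of mitotic entry fell in 7 of 9 cases. AURKA, the kinase of the spindle poles, was at 28.4 and 19.4 FPKM in 3D under normoxia and hypoxia, and at 58.3 and 42.3 FPKM in 2D (-1.05 ± 0.11, adjusted p = 0.00918). CCNB1, cyclin B1, was at 56.1, 40.5, 109 and 86.0 FPKM (-1.01), and PLK1 at 39.9, 29.5, 72.2 and 56.9 FPKM (-0.88). For these 3 genes every 3D value lay below every 2D value. CDC25C and CCNB2 had effects of -0.89 and -0.85, CCNA2, cyclin A2, -0.59, and FOXM1, a transcription factor of G2 genes, -0.58 (adjusted p = 0.0389).

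The other 2 genes of entry did not pass the test. CDK1 itself was at 49.6, 32.9, 54.8 and 48.8 FPKM, with an effect of -0.35 (adjusted p = 0.131), so it differed less between cultures than its partner CCNB1 did, with no test of that difference. CDC25B, the phosphatase that starts CDK1 activation, was higher in 3D: 147 and 112 FPKM in 3D under normoxia and hypoxia, and 130.4 and 94.0 FPKM in 2D. Its log2 ratio was 0.17 under normoxia and 0.25 under hypoxia, and the average effect of 0.21 had an adjusted p of 0.252. With every library rescaled to the same FPKM sum, which lowers the ratios of all genes, the ratio under normoxia was -0.03, and relative to the median of all genes it was 0.20 as deposited and 0.19 rescaled.

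In the spindle checkpoint 3 of 5 fell. BUB1B, the checkpoint pseudokinase BubR1, was at 11.2 and 8.07 FPKM in 3D under normoxia and hypoxia, and at 24.1 and 19.9 FPKM in 2D (-1.12 ± 0.12, adjusted p = 0.00856). BUB1 and TTK, the 2 kinases that load the checkpoint on kinetochores, had effects of -0.88 and -0.86. MAD2L1, which binds CDC20 to hold it back, was at 21.8, 16.3, 23.8 and 24.9 FPKM (-0.35, adjusted p = 0.136). BUB3, which tethers the BUB kinases to the kinetochore, was at 74.8, 65.2, 74.0 and 72.4 FPKM (-0.07, adjusted p = 0.715). BUB3 had the highest level of the group and varied least over the 4 libraries of the 5 checkpoint genes. Its ratio under normoxia was 0.02, and relative to the median of all genes 0.05 as deposited and 0.03 rescaled.

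In the chromosomal passenger complex, which corrects faulty attachments, 3 of 4 fell. INCENP was at 14.4 and 10.4 FPKM in 3D under normoxia and hypoxia, and at 30.6 and 23.4 FPKM in 2D (-1.07 ± 0.11, adjusted p = 0.00868). AURKB, its kinase, was at 29.2, 21.8, 49.0 and 49.0 FPKM (-0.93, adjusted p = 0.0147), and CDCA8, borealin, at 12.2, 7.62, 18 and 17.0 FPKM (-0.80, adjusted p = 0.0252). BIRC5, survivin, was at 26.2, 18.7, 29.8 and 31.3 FPKM (-0.45, adjusted p = 0.0931), with a 3D value 1.13-fold lower under normoxia and 1.64-fold lower under hypoxia.

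Centromere and kinetochore genes varied most among themselves, with 6 of 9 called and average effects from -1.61 to 0.25. CENPF, a large protein that binds kinetochores late in the cycle, was at 14.7 and 13.2 FPKM in 3D under normoxia and hypoxia, and at 44.9 and 44.1 FPKM in 2D. Its 3D value was 2.92-fold lower under normoxia and 3.17-fold lower under hypoxia, and its average log2 effect of -1.61 ± 0.12 had the smallest adjusted p of the 51 members (0.00482). CENPE, a kinetochore motor, was at 3.69, 3.05, 8.37 and 7.10 FPKM (-1.0, adjusted p = 0.0106).

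The 4 genes of the NDC80 complex, which grips the microtubule end, did not move as 1 unit. NUF2 was at 11.6, 9.46, 21 and 19.9 FPKM (-0.90, adjusted p = 0.0118). NDC80 was at 5.70, 4.03, 9.38 and 8.44 FPKM (-0.77, adjusted p = 0.0188), and SPC24 at 10.6, 6.89, 14 and 10.3 FPKM (-0.44, adjusted p = 0.0478, a call lost under 4 alternatives). SPC25, the partner of SPC24, was at 18.5, 13.8, 15.1 and 11.7 FPKM, a log2 ratio of 0.28 ± 0.10 under normoxia and 0.22 ± 0.11 under hypoxia (counting error only), and an average effect of 0.25 (adjusted p = 0.157). Differences among the 4 were not tested. CENPK had an effect of -0.55 (adjusted p = 0.0291). CENPA, the histone H3 variant of centromeres, was at 17.4, 12.7, 20.2 and 21.2 FPKM (-0.45, adjusted p = 0.0830), and CENPM at 23.1, 13.0, 23.8 and 19.3 FPKM (-0.29, adjusted p = 0.215).

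Differences between the oxygen levels were smaller, and most members had lower levels under hypoxia in 3D, fewer in 2D. In 3D the median log2 ratio of hypoxia to normoxia was -0.42 over the members and -0.02 over all genes, and 50 of 51 members were below 0 against 52.0% of all genes. At least 2-fold lower were 0 members, against 1.11% of all genes, and at least 1.5-fold lower were 5, against 4.59%: CENPM, KIF18A, NCAPH, CDCA8 and CDC20. In 2D the median was -0.16 (all genes -0.00), with 44 members below 0 against 50.3%, 0 at least 2-fold lower against 1.59%, and 0 at least 1.5-fold lower against 5.43%. Rescaling every library to the same FPKM sum took the 5 in 3D to 18, against 9.83% of all genes. In 3D the ratio was beyond 2 counting errors for 50 members, all but KIF20A, against 53.4% of all genes with a length. In 2D it was so for 34 members, against 68.1%, a share near that of all genes. Counting error leaves out all other variation between single libraries.

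For the average of both hypoxia ratios, limma called 0 of the 51 members lower, where 1.64% of all genes were called lower, and 0 higher. An unadjusted p below 0.05 was found for 24 members, against 25.6% of all genes, all with a negative effect except ANLN, and limma without a mean-variance trend also called 0. The smallest adjusted p was 0.0741, for AURKA, with an average log2 effect of -0.49 ± 0.11. CDC20 followed with -0.51 ± 0.12 (adjusted p = 0.0787) and SPC24 with -0.48 ± 0.12 (adjusted p = 0.0816). The median average effect was -0.28, against -0.01 over all genes.

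**Figure D4:**
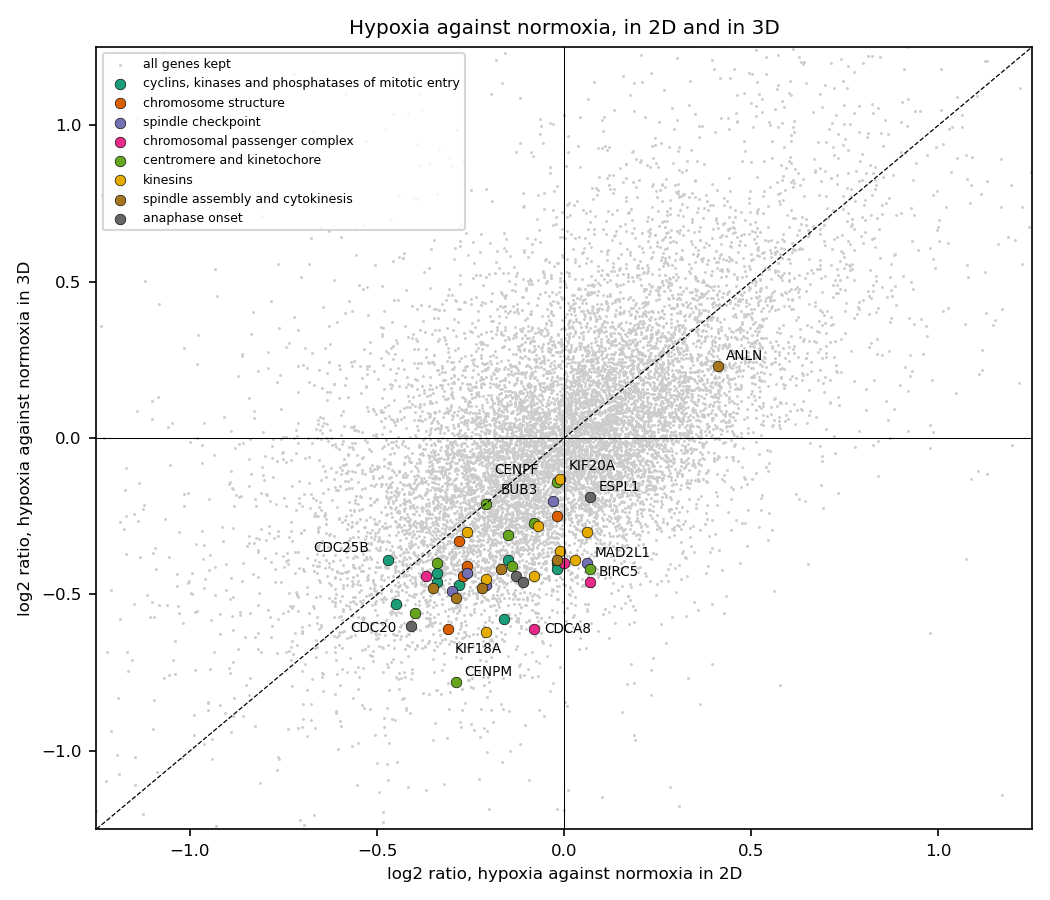
Log2 ratio of FPKM + 1 in hypoxia against normoxia in 2D (x axis) and in 3D (y axis) for the 51 mitotic genes (colours by role) and all 12663 genes kept (grey, those beyond the axes not drawn); the dashed line marks equal ratios, and each point rests on 1 library per group. The mitotic genes spread from -0.47 to 0.41 in 2D and from -0.78 to 0.23 in 3D, ANLN lies apart at the upper right, and 50 of 51 lie below the dashed line.

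CENPM had the lowest ratio in 3D, -0.78 ± 0.15 (counting error), from 23.1 to 13.0 FPKM, and in 2D went from 23.8 to 19.3 FPKM (-0.29 ± 0.08). KIF18A had -0.62 ± 0.11 in 3D and -0.21 ± 0.06 in 2D, and NCAPH -0.61 ± 0.14 and -0.31 ± 0.07. In 2D the lowest were CDC25B (-0.47 ± 0.02), AURKA (-0.45 ± 0.03) and CDC20 (-0.41 ± 0.03). In 3D these had -0.39, -0.53 and -0.60. CDC25B was thus lower under hypoxia in both cultures, and was the only member whose ratio was further below 0 in 2D than in 3D.

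ANLN went the other way. From normoxia to hypoxia it went from 23.2 to 27.4 FPKM in 3D, a log2 ratio of 0.23 ± 0.05 (counting error), and from 50.1 to 66.9 FPKM in 2D, 0.41 ± 0.02. It was the only member higher under hypoxia in both cultures, also with the libraries rescaled to the same sum (0.10 and 0.28). Its average effect of 0.32 ± 0.12 did not pass the test (adjusted p = 0.174). Its partners of the cleavage furrow RACGAP1 and ECT2 had -0.39 and -0.51 in 3D and -0.02 and -0.29 in 2D.

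The hypoxia ratio was lower in 3D than in 2D for 50 of 51 members, against 51.8% of all genes, and the same 50 genes had a lower ratio of 3D to 2D under hypoxia than under normoxia, since both are the same difference of 4 values. The median difference was -0.23 over the members and -0.01 over all genes, with no test, because the 4 libraries leave no residual for it. It was beyond 2 counting errors in 32 members, against 43.8% of all genes with a length. The largest were those of CDCA8 and BIRC5, both -0.53, and CENPM, -0.49. AURKB stood at 49.0 FPKM in both 2D libraries and at 29.2 and 21.8 FPKM in 3D, a difference of -0.40 ± 0.12 (counting error). The passenger complex had a median difference of -0.47 and kinesins of -0.34, against -0.16 for chromosome structure and -0.16 for centromere and kinetochore genes. CENPE had -0.00, KIF2C -0.04 and CDC25B 0.08. CDK1 went from 49.6 to 32.9 FPKM in 3D, -0.58, and from 54.8 to 48.8 in 2D, -0.16. The ranking of the members by culture ratio was alike at both oxygen levels (Spearman rho 0.94 over 51 genes, from separate pairs of libraries), and that by hypoxia ratio less so in the 2 cultures (0.55), both given as descriptions, since genes are not replicates.

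Transcript length moved with the culture ratio over all genes. Among 10 length classes of the 11961 genes with a length, the median log2 ratio of 3D to 2D under normoxia ran from 0.22 in the shortest class to -0.23 in the longest, and under hypoxia from 0.16 to -0.28. Spearman rho with length was -0.45 over the 51 members and -0.28 over all genes under normoxia. The 11 members in the 3 shortest classes had a median of -0.39 (all genes there 0.15), the 24 in the middle classes -0.79 (all genes -0.05) and the 16 in the longest -0.92 (all genes -0.16). The longest members included CENPF, MKI67, CENPE, TOP2A and ESPL1, which had some of the lowest ratios, and the short ones UBE2C, PTTG1, CENPM, SPC24 and SPC25, which had ratios nearer 0. CDC20 was short and fell by 1.16 on the log2 scale, and BUB3, MAD2L1 and ECT2 were long and did not pass the test.

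With every library centred on the median of its length class, an alternative chosen after the data were seen, 35 of the 42 members were still called lower in 3D, against 5.14% of all genes, and 0 higher, against 5.56%. CCNA2, FOXM1, NCAPH, CDCA8, KIF11, KIF18A and KIF20B lost the call, with average log2 effects of -0.52, -0.48, -0.54, -0.78, -0.64, -0.57 and -0.57 and adjusted p-values from 0.0521 to 0.0919. The average log2 effect of CENPF then was -1.36 and that of MKI67 -1.34, and those of UBE2C and PTTG1 were -0.75 and -0.74. Under hypoxia against normoxia in 3D, rho with length was 0.45 over the members and 0.11 over all genes.

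**Figure D5:**
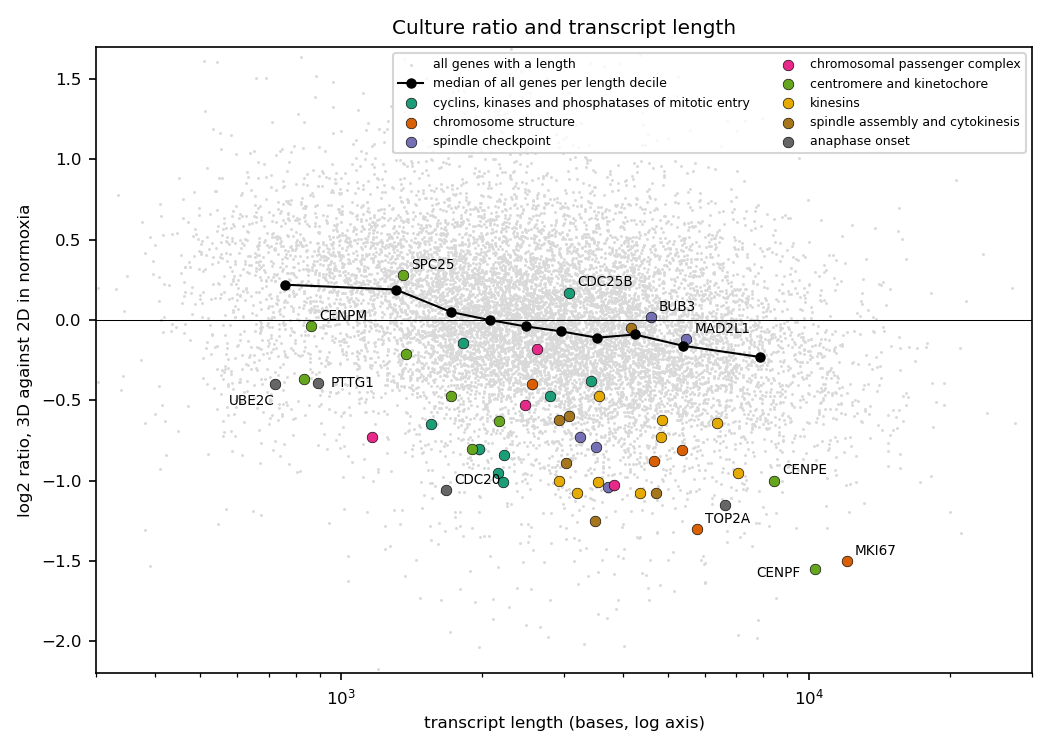
Log2 ratio of 3D to 2D under normoxia (y axis) against transcript length (x axis, log scale) for the 51 mitotic genes (colours by role) and all genes with a length (grey, those beyond the axes not drawn); black points are medians of all genes per length class. The black line runs from 0.22 to -0.23, and most mitotic genes lie below it in every part of the length range.

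Library scaling moved the level of all genes. Rescaling each library to the same FPKM sum took the median of all genes from -0.03 to -0.21 in both culture pairs. Relative to that median, the median of the members was -0.70 as deposited and -0.74 rescaled under normoxia, and -0.96 and -1.01 under hypoxia. With rescaling, 46 members were called lower in 3D and 0 higher. Of the 13682 genes that then passed the filter, 3141 were called lower and 785 higher. Of all genes called 80% were thus lower, against 52.9% as deposited. The ratios of BUB3 and CDC25B under normoxia passed below 0 with this shift of all genes and stayed above the median of all genes.

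A wider list of 132 other mitotic genes, 131 of which passed the filter, was described in the same way. It too was chosen with earlier results of these data known. By limma 60 of the 131 fell in 3D, where 11.6% of all genes fell, and 3 rose, where 10.4% of all genes rose. The median average effect was -0.43, against -0.03 over all genes. The share called lower differed by role. Called were 4 of 5 other condensin subunits, 19 of 26 other spindle and midbody genes and 12 of 21 other regulators of entry and exit. So were 4 of 8 other checkpoint and cohesion protectors, 5 of 12 cohesin subunits and loaders and 11 of 30 other kinetochore and centromere genes. The others were 3 of 16 subunits and regulators of the anaphase-promoting complex, and 2 of 13 genes of DREAM, MuvB and NF-Y. The spindle and midbody list counted KIF3A and KIF5B, kinesins not confined to mitosis, which were not called (adjusted p = 0.121 and 0.290). These shares were not compared by a test. Those of the anaphase-promoting complex and of the list of DREAM, MuvB and NF-Y lay nearest to the 11.6% of all genes.

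Among those that fell, CKAP5, a microtubule polymerase, was at 26.5 and 23.8 FPKM in 3D under normoxia and hypoxia, and at 58.2 and 52.4 FPKM in 2D (-1.11, adjusted p = 0.00856). PKMYT1, a kinase that holds CDK1 inactive, was at 17.2, 11.9, 38.0 and 26.3 FPKM (-1.09), and KNTC1, of the checkpoint's RZZ complex, at 7.40, 5.87, 16.5 and 14 FPKM (-1.09). KIF18B, DLGAP5 and FAM83D, all spindle proteins, had effects of -1.02, -1.09 and -0.98. The lowest effect of the wider list was that of SPDL1, which recruits dynein to kinetochores, at 12.8, 12.4, 25.1 and 42.2 FPKM (-1.30, adjusted p = 0.0144). SPDL1 was level in 3D and 1.65-fold higher under hypoxia in 2D. SPAG5, SMC2, SMC1A, TRIP13, RBL1 and FBXO5 had the lowest effects of their lists, at -1.16, -1.06, -0.89, -0.80, -0.77 and -0.62, and all fell.

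The 3 that rose were ANAPC16 and ANAPC10, both subunits of the anaphase-promoting complex, and PMF1, a subunit of the MIS12 kinetochore complex. ANAPC16 was at 40.7 and 48.0 FPKM in 3D under normoxia and hypoxia, and at 24.5 and 30.7 FPKM in 2D (0.67 ± 0.11, adjusted p = 0.0190). ANAPC10 was at 5.98, 5.39, 4.10 and 3.30 FPKM (0.51, adjusted p = 0.0423) and PMF1 at 49.3, 42.3, 33.8 and 31.1 FPKM (0.48, adjusted p = 0.0383). PMF1 overlaps the readthrough gene PMF1-BGLAP, listed at 2.21 to 4.78 FPKM, so the split of fragments between them is uncertain. ANAPC10 and PMF1 were not called with length centring or rescaling. MAU2, LIN37, HAUS4, PPP2R5C, NCAPH2 and ARPP19 had the highest effects of their lists without passing the test, at -0.02, 0.09, 0.08, 0.25, -0.37 and 0.45.

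For oxygen, limma called 1 of the 131 lower, against 1.64% of all genes, and 0 higher, against 3.20%. An unadjusted p below 0.05 was found for 24, a smaller share than the 25.6% of all genes. The 1 was TROAP, a spindle-associated protein, at 27.5 and 14.7 FPKM in 3D under normoxia and hypoxia, and at 35.7 and 24.3 FPKM in 2D (-0.70 ± 0.13, adjusted p = 0.0473). It was lower under hypoxia in both cultures, 1.82-fold in 3D and 1.45-fold in 2D. The call was lost with a pseudocount of 5, without a filter on low values, with the median ratio set to 0, without trend and with length centring, and the adjusted p ran from 0.0264 to 0.459 over the alternatives.

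Some values rest on an uncertain split of fragments. PRC1-AS1, antisense to PRC1, was listed at 8.66, 6.55, 16.9 and 14.4 FPKM, and HMMR-AS1, antisense to HMMR, at 1.30, 0.832, 2.45 and 2.36 FPKM. The libraries were made with a stranded kit, but no source used here gives the strand setting of the counting, so sense and antisense fragments of these genes may not have been told apart. KIF4B, a retrocopy of KIF4A, was at 0.0276 FPKM or less and RACGAP1P at 0.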

How the data were processed

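The 51 genes and the wider lists were chosen with earlier results of these data known. The authors deposited FPKM per gene symbol. Cuffdiff 2.2.1, TopHat2 2.1.1, SAMtools 0.1.18, Bowtie2 2.2.8 and the hg19 build are named per the submitters' processing notes. Annotation, strand setting and library scaling: not given in the sources used here. Values were taken as log2(FPKM + 1) over 12663 genes whose mean was 1 FPKM or more. Average effects were tested with limma 3.58.1 (R 4.3.3, trend, prior degrees of freedom 4.67, residual 1, Benjamini-Hochberg over all genes), and pairs were only described. On simulated data without an oxygen effect or a difference of the culture ratio between oxygen levels, limma made false calls above the nominal rate. Depth was inferred from the value of 1 fragment, with GENCODE 29 lengths of another build (0.0839, 0.0871, 0.0415 and 0.0258 FPKM on 1 kb for 3D under normoxia and hypoxia and 2D likewise). Counting errors rest on these estimates and leave out all other variation. Any member could be named. Values were given for the highest level and the lowest and highest culture effect of each role, the 12 called members of smallest p, and the 3 lowest and 3 highest of each pair. Of the wider list, up to 6 called genes of smallest p and the extremes of each role were named. Alternatives were pseudocounts of 0.1 and 5, no filter, at least 5 FPKM, rescaling, a median ratio of 0, limma without trend and length centring. Python 3.11.15, numpy 2.4.6, pandas 2.3.3 and matplotlib 3.10.9 served for the rest.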

Additional observations from a re-analysis of the deposited data

Results flagged for a closer look

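Some members had opposite signs under the same contrast, with 1 library per group, so none of these differences was tested. BUB3 had a log2 ratio of 3D to 2D of 0.02 under normoxia and -0.15 under hypoxia. For hypoxia against normoxia, MAD2L1 had -0.40 in 3D and 0.06 in 2D, BIRC5 -0.46 and 0.07, CENPA -0.42 and 0.07, KIF20B -0.30 and 0.06, KIF23 -0.39 and 0.03, and ESPL1 -0.19 and 0.07. Rescaling the libraries to the same FPKM sum lowers the ratios of all genes and took the positive ratios of these 7 genes below 0. Relative to the median of all genes they lay between 0.03 and 0.08 as deposited and between 0.02 and 0.07 rescaled.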

How the results depend on the processing

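No paired analysis was possible because each group had 1 library, so the groups shared a single replicate number. Leaving out a library would leave no residual degree of freedom. Of the 42 members called lower in 3D, 31 were called under every alternative except the one without a filter on low values. There 0 of all 26255 genes were called and 37 members had an unadjusted p below 0.05. No share of all genes was counted for the 31 or the 37. Counts of members called otherwise ran from 35 with length centring, against 5.14% of all genes, to 46 rescaled, against 3141 of 13682 genes. Members at least 2-fold lower in 3D under normoxia (13) numbered 4 with a pseudocount of 5, 24 rescaled and 7 with length centring. The shares of all genes for these are given above. Under hypoxia (24) they numbered 13 with a pseudocount of 5, where no share of all genes was counted. The median under normoxia (-0.73) was -0.80 with a pseudocount of 0.1, -0.54 with 5, -0.95 rescaled and -0.65 with length centring, and under hypoxia (-0.99) it was -1.06, -0.75, -1.23 and -0.88 in that order. Rescaled, the median for hypoxia was -0.56 in 3D (-0.42) and -0.30 in 2D (-0.16). For oxygen 1 of 51 members (AURKA) was then called lower (0), against 362 of 13682 genes. At least 1.5-fold lower in 3D were 18 members (5), against 9.83% of all genes. Of the wider list, 60 were called lower in 3D, against 11.6% of all genes. Without a filter 0 were, as over all genes, and with length centring 38 of 127, against 5.14%. Those called higher (3) were 1 with a pseudocount of 5, rescaled or with length centring, and 0 without a filter. Over all genes those called higher were 948 of 12663, 785 of 13682, 665 of 11961 and 0 in that order. The 1 called lower for oxygen became 4 of 114 with at least 5 FPKM, a share near that of all genes (313 of 9159). Rescaled it became 2 of 132, against 362 of 13682 genes. It became 0 with a pseudocount of 5, without a filter, with the median set to 0, without trend and with length centring. With at least 5 FPKM 1 was called higher (0), against 507 of 9159 genes. For single members, each value under each alternative was counted as 1 case. Called average effects kept their call in 272 cases and lost it in 63. Effects that were not called stayed so in 474 cases and gained a call in 5. Ratios and their differences moved by less than their counting error in 1340 cases and by more in 440. The cause of these changes was not tested. With 1 library per group, no value carries a replicate error, and the 3D libraries had the fewer fragments.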
